A study of Mus musculus with 2 samples.

Results

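The miRNAs described here are both arms of miR-21a, miR-31, miR-155 and miR-210, 4 hairpins whose products are often raised in tumours and are called oncomiRs. They were taken by exact name, which gave 8 of the 1881 mouse miRNAs on the array, and all 8 were present. The RNA came from exosomes, small vesicles shed by cells into the medium, of the mouse Lewis lung carcinoma (LLC) line. Cells were grown with serum and then kept for 24 h without it, in the presence of cisplatin at 5 µM, which crosslinks DNA. The only group held 2 samples from independent experiments, each on its own one-colour (Cy3) array, here array 1 and array 2. No untreated samples were analysed here, so the values show which members gave a signal and how repeatable it was, not what cisplatin changed. As a check of the labelled cell type, 7 epithelial miRNAs (miR-205-5p, miR-203-3p and the miR-200 family) were looked up and 0 were detected on either array, where 16.6% of all miRNAs on array 1 and 10.7% on array 2 were detected. With 7 names this count is close to those shares, so it does not decide the cell type. Of 6 stromal miRNAs, 4 were detected on both arrays (66.7%), against 10.7% of all miRNAs. All 4 are miR-199 or miR-214 names, and miR-143-3p and miR-145a-5p were not detected.

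A miRNA is cut from a hairpin transcript as a duplex, and one arm, the guide, is loaded into Argonaute while the other, the passenger, is mostly degraded. The guide pairs with target mRNAs mainly through its seed, bases 2 to 8, and lowers their translation and stability. miR-21 is abundant in most carcinomas and represses the tumour suppressor Pdcd4. miR-31 acts as an oncogene in lung cancer, where it represses Lats2, and as a suppressor of metastasis in breast cancer. miR-155 comes from the BIC transcript, drives B cell lymphoma in mice and is high in activated lymphocytes and macrophages. miR-210 is induced by hypoxia-inducible factor and represses Iscu, an assembly factor of iron-sulphur clusters.

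The mature sequences are shown because the calls below separate arms of the same hairpin and relatives that differ at several bases. They are from RefSeq (GRCm38.p6), written 5′ to 3′, with the seed in capitals.
mmu-miR-21a-5p: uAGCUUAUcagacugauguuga
mmu-miR-21a-3p: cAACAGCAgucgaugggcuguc
mmu-miR-31-5p: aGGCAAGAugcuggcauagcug
mmu-miR-31-3p: uGCUAUGCcaacauauugccauc
mmu-miR-155-5p: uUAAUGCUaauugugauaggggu
mmu-miR-155-3p: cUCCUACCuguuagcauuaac
mmu-miR-210-3p: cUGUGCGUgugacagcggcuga
mmu-miR-210-5p: aGCCACUGcccaccgcacacug
No seed was shared between members. Of the 1881 names, 1608 had a mature sequence in the RefSeq table, and only miR-21c had the seed of a member, that of miR-21a-5p. GC content was 36.4% in miR-21a-5p, 54.5% in miR-31-5p, 34.8% in miR-155-5p and 63.6% in miR-210-3p.

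The hairpins show how each pair of arms is placed, with both arms in capitals. In Mir21a, Mir31 and Mir155 the guide is the first arm, and in Mir210 it is the second.
Mir21a: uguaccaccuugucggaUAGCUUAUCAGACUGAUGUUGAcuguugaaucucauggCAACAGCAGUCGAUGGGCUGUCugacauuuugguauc
Mir31: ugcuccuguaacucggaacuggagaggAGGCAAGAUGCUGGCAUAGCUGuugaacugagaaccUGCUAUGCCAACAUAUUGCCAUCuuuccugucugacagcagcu
Mir155: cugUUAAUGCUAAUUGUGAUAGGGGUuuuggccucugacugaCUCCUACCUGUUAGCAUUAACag
Mir210: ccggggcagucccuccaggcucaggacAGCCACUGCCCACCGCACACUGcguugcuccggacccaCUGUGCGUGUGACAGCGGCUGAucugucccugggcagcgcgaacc
The 4 loci lie on different chromosomes. Mir21a (chr11:86584067-86584158, minus strand) lies within the span of the protein-coding gene Vmp1. Mir31 (chr4:88910557-88910662, minus strand) lies within the long noncoding gene Gm49890. Mir155 (chr16:84714140-84714204, plus strand) lies within its host Mir155hg, the BIC transcript. Mir210 (chr7:141221384-141221493, minus strand) overlapped no other annotated gene, and the nearest was Rassf7, 2726 bases away. Whether a hairpin lies in an exon or an intron was not read from this gene table.

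A miRNA counted as detected on an array when the total signal of at least 1 probe exceeded 3 times that probe's error. By this rule 3 of the 8 members, miR-21a-5p, miR-31-5p and miR-210-3p, were detected on both arrays. Over all 1881 miRNAs the share was 10.7%, and the members were chosen as known tumour miRNAs, so the shares are given side by side without a test. Array 1 alone detected miR-155-5p and miR-31-3p, and neither array detected miR-21a-3p, miR-155-3p or miR-210-5p. By arm, all 4 guides were detected on array 1 and 3 of them on array 2, against 1 of 4 passengers on array 1 and 0 of 4 on array 2. The background was 16.6% of all miRNAs on array 1 and 10.7% on array 2. Of all 1881 miRNAs, 111 were called on array 1 only and 1568 on neither.

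**Figure D1:**
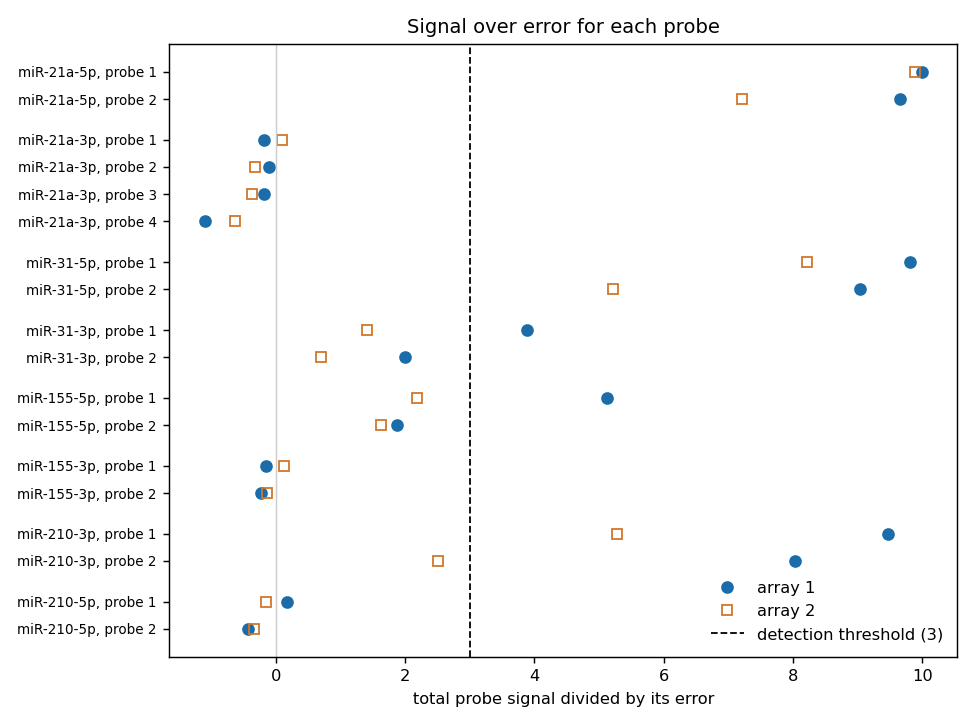
Total probe signal divided by its error (no unit) for the 18 member probes, with array 1 as filled circles and array 2 as open squares. The dashed line is the detection threshold of 3; both miR-21a-5p probes lie above it on both arrays, and the probes of miR-155-5p and miR-31-3p lie below it on array 2.

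Spot intensities below are the processed, background-subtracted values on a linear scale, before any scaling between arrays. Each miRNA had 2 probes with 15 spots each, except miR-21a-3p with 4 probes of 7 or 8 spots. Spots of a probe lie on 1 array and share 1 RNA sample, so the spot SDs are technical and n is always 2 samples. Brightness depends on the probe, so intensities are not compared between miRNAs. The 1000 negative-control spots averaged 0.47 ± 2.36 on array 1 and 1.37 ± 2.81 on array 2 (SD over spots). Their mean plus 3 SD, 7.55 on array 1 and 9.81 on array 2, serves as a guide to background.

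mmu-miR-21a-5p, the guide of the miR-21a hairpin, gave a signal far above background in both samples. Its brighter probe averaged 757.0 ± 15.7 on array 1 (12 spots, 3 left out as outliers) and 217.6 ± 13.9 on array 2 (15 spots). Its dimmer probe averaged 108.4 ± 8.4 on array 1 and 30.4 ± 3.1 on array 2. Every spot of both probes was above the background guide, and the spots of array 1 and array 2 did not overlap. The bright probe exceeded the dim one 6.98-fold on array 1 and 7.16-fold on array 2, although both report the same miRNA. Signal over error was 9.99 on array 1 and 9.89 on array 2 for the brighter probe. This ratio levelled off just under 10 in every bright probe, with a highest value of 9.998 on array 1, so it does not grade bright miRNAs.

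The array also carried 2 relatives of miR-21a-5p, and their calls are given beside its signal.
mmu-miR-21a-5p: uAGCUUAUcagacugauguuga
mmu-miR-21b: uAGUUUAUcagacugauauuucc
mmu-miR-21c: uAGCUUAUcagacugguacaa
Counted from 1 at the 5′ end without gaps, miR-21c differs from miR-21a-5p first at position 16, by A16G, G18A, U19C, U20A and G21A, and keeps its seed. miR-21b differs by C4U within the seed and by G18A, G21U and A22C. Neither relative was detected on either array. The miR-21c probes averaged -0.63 and -1.51 on array 1 and 0.19 and -0.81 on array 2. The miR-21b probes averaged 1.49 and 1.19 on array 1 and 1.54 and 1.58 on array 2. All of these means lie within 1 SD of the negative-control spots, on the same arrays where miR-21a-5p was bright. Probe sequences were not available here, so how well the probes tell these names apart was not tested.

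mmu-miR-31-5p, the guide of miR-31, was detected by both of its probes on both arrays. The brighter probe averaged 144.7 ± 8.1 on array 1 and 42.4 ± 4.8 on array 2. The dimmer probe averaged 60.2 ± 5.0 on array 1 and 17.8 ± 2.9 on array 2. Every spot of both probes passed the background guide on each array, with no overlap between the arrays. Its passenger, mmu-miR-31-3p, was the only passenger of the 4 hairpins with any call. Its brighter probe averaged 11.8 ± 2.2 on array 1, where all 14 spots kept were above the guide, and 4.16 ± 2.32 on array 2, where 0 of 15 were. Its dimmer probe averaged 5.7 ± 3.0 on array 1 and 2.0 ± 2.5 on array 2. Signal over error of the brighter probe was 3.89 on array 1, just inside the threshold, and 1.41 on array 2. Spots of the arrays overlapped for both miR-31-3p probes.

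mmu-miR-210-3p, the guide of the hypoxia-induced hairpin, was detected on both arrays, but by both probes on array 1 only. The brighter probe averaged 84.2 ± 5.1 on array 1 and 18.1 ± 2.1 on array 2, with signal over error of 9.48 and 5.28. The dimmer probe averaged 37.9 ± 3.7 on array 1 and 7.57 ± 3.27 on array 2. Its signal over error was 8.03 on array 1 and 2.51 on array 2, below the threshold, and 3 of its 15 spots there passed the background guide. Spots of the arrays did not overlap for either probe. The call on array 2 thus rested on a single probe.

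mmu-miR-155-5p, the guide of miR-155, was detected by 1 of its 2 probes on array 1 and by neither on array 2. The brighter probe averaged 16.9 ± 4.6 on array 1, where all 15 spots passed the background guide, and 6.54 ± 2.97 on array 2, where 2 of 15 did. The dimmer probe averaged 5.38 ± 2.83 on array 1 and 4.81 ± 3.31 on array 2. Signal over error of the brighter probe was 5.12 on array 1 and 2.19 on array 2. At the error measured for it, the brighter probe needed a mean intensity of about 8.97 on array 2 to be called. The measured 6.54 there fell short of a call. All 15 of its spots there were above the negative-control mean.

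miR-155 is best known from leukocytes, so their miRNAs are given beside it. Of 5 leukocyte miRNAs, 0 were detected on both arrays, which for so few names is close to the 10.7% of all miRNAs. miR-142a-3p, which is found in nearly all blood cells, was called on array 1 only, with signal over error of 6.89 on array 1 and 2.01 on array 2. The myeloid miR-223-3p reached 2.57 on array 1 and 2.19 on array 2, and miR-150-5p of mature lymphocytes -0.05 and -0.27. miR-146a-5p (0.93 and 0.78) and miR-142a-5p (0.53 and -0.15) were below threshold as well. The summed level of the 5 miRNAs was 29.9 intensity units on array 1 and 13.6 on array 2. These sums use levels floored at 1, so a miRNA without signal still adds to them. They are made up of signals below the detection threshold, except for miR-142a-3p on array 1. There it was the largest of the 5, with a log2 level of 4.21. Their part in the miR-155-5p signal was not tested. Of 4 red cell miRNAs and 2 endothelial ones, 0 were detected on either array, again close to the share over all miRNAs.

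**Figure D2:**
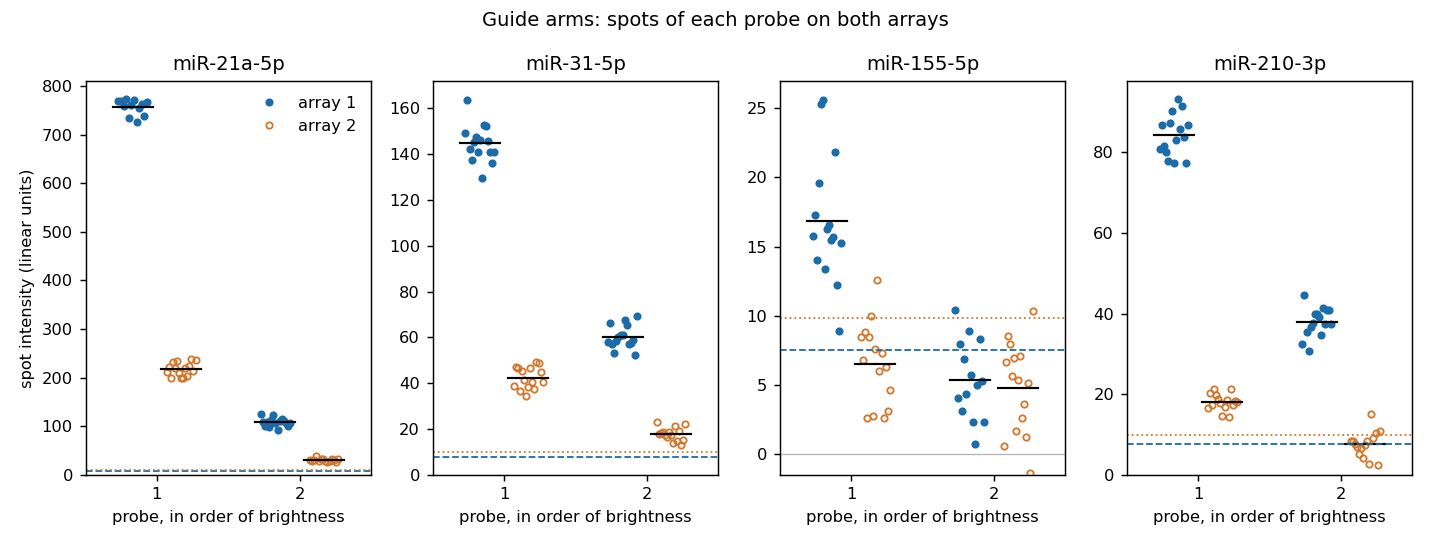
Spot intensities (linear units) of the guide arms, each panel on its own scale, with the probes of a miRNA in order of brightness. Filled points are array 1, open points array 2 and bars probe means; the dashed line (array 1) and dotted line (array 2) are the negative-control mean plus 3 SD. miR-21a-5p, miR-31-5p and the brighter miR-210-3p probe lie above both lines, and miR-155-5p straddles them on array 2.

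The passengers mmu-miR-21a-3p, mmu-miR-155-3p and mmu-miR-210-5p gave no signal above background. Their 8 probes averaged between -3.05 and 0.50 on array 1 and between -1.81 and 0.36 on array 2. The highest single spot on array 1 was 3.63 for miR-21a-3p, 3.75 for miR-155-3p and 3.67 for miR-210-5p, all below the background guide of 7.55. Signal over error ran from -1.09 to 0.18 on array 1 and from -0.62 to 0.12 on array 2. Taking the error measured for each, the probes with 15 spots needed a mean intensity of about 8.39 to 8.40 on array 1 to be called. On array 2 they needed about 8.72 to 8.73. The error rose with signal, so a probe near a call would need more. For the brighter miR-31-3p probe on array 1, the limit was 9.13. Lower amounts were not detectable at this precision.

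**Figure D3:**
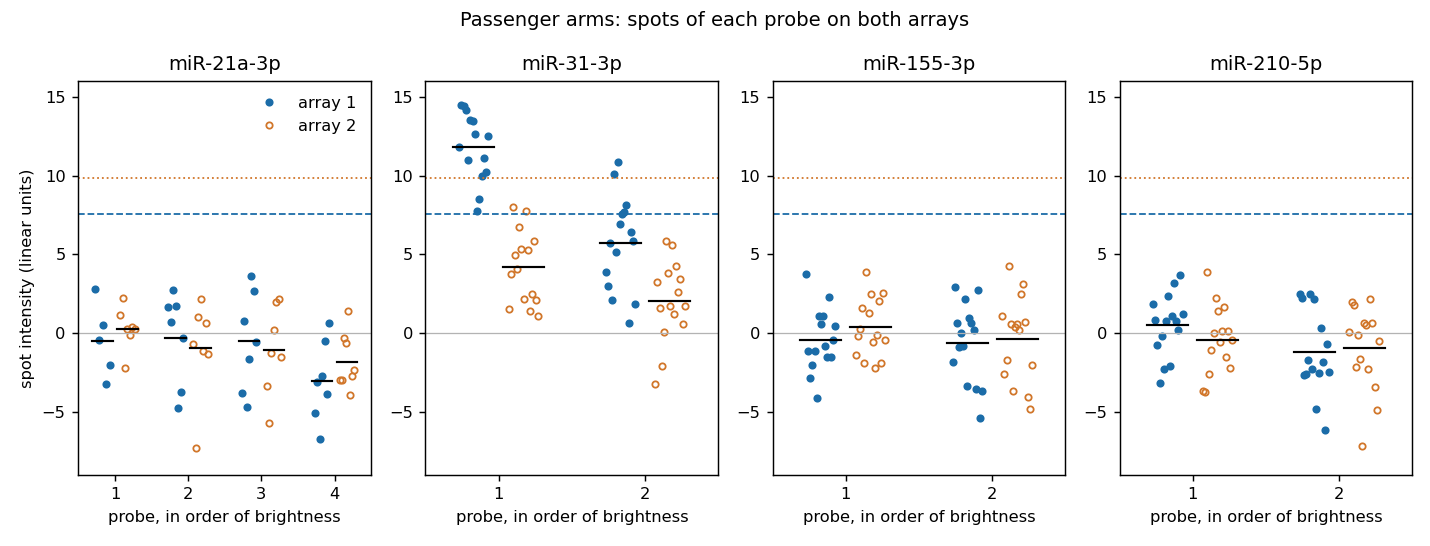
Spot intensities (linear units) of the passenger arms on 1 common scale, with symbols, bars and lines as for the guides. miR-31-3p on array 1 lies above the dashed line for its brighter probe, while every spot of miR-21a-3p, miR-155-3p and miR-210-5p lies below it.

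All members detected on both arrays were brighter on array 1, and the arrays' ratio was nearly the same from each probe of a miRNA. For miR-21a-5p, mean intensity was 3.48 ± 0.06 times higher on array 1 by the brighter probe and 3.57 ± 0.12 times by the dimmer one (SE over spots). For miR-31-5p the ratios were 3.41 ± 0.11 and 3.37 ± 0.16. For miR-210-3p the ratio was 4.65 ± 0.16 by the brighter probe and 5.01 ± 0.57 by the dimmer one, which was not detected on array 2. The probes of miR-21a-5p thus differed by 0.04 log2 units in this ratio and those of miR-31-5p by 0.02. Over 122 miRNAs with at least 2 probes detected on both arrays, the median was 0.10 (interquartile range 0.03 to 0.19). Fewer vesicles in the preparation and less of a miRNA per vesicle cannot be told apart in such RNA.

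mmu-For the members called on array 1 alone, the array 2 means were below the detection threshold, so their ratios are plotted but not read as measured. They were 2.84 ± 0.43 and 2.82 ± 0.99 for the probes of miR-31-3p, and 2.58 ± 0.35 and 1.12 ± 0.25 for those of miR-155-5p. The dimmer probe of each was below the threshold on both arrays.

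**Figure D4:**
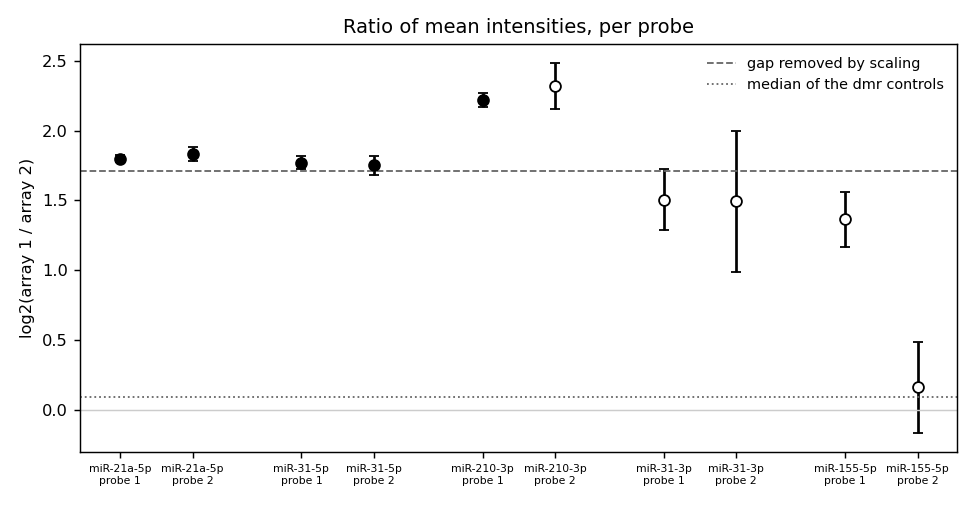
Log2 ratio of mean intensity, array 1 over array 2, for each probe, with error bars of 1 SE over spots. Filled points are probes detected on both arrays and open points those that were not; the dashed line is the 1.71 removed by scaling and the dotted line the median of the dmr controls, 0.09. The miR-21a-5p and miR-31-5p probes lie near the dashed line and the miR-210-3p probes above it.

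miR-210-3p differed more between the arrays than the other detected members. Over probes detected on both arrays, 1 for miR-210-3p and 2 for each of the others, its log2 ratio was 0.40 ± 0.06 above that of miR-21a-5p and 0.46 ± 0.06 above that of miR-31-5p (combined SE over spots). miR-21a-5p and miR-31-5p were 0.06 ± 0.05 apart. These errors cover spots only, and with 1 ratio per miRNA from 2 samples no test over samples was possible. The order depended on the background correction: with normexp and an offset of 50, which is added before the logarithm and draws dim differences toward 0, the unscaled differences were 0.74 for miR-210-3p, 0.83 for miR-31-5p and 1.24 for miR-21a-5p.

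Set among the 201 miRNAs detected on both arrays, the 3 members lay in the upper part of the range. On the log2 scale, spots and probes averaged, the difference of array 1 minus array 2 was 2.35 for miR-210-3p (2.23 by its brighter probe alone), 1.82 for miR-21a-5p and 1.77 for miR-31-5p. The median over the 201 was 0.78 (interquartile range 0.19 to 1.66), and only 6 had a larger difference than the 2.35 of miR-210-3p. That value includes its dimmer probe, which was not detected on array 2. Its 2.23 by the brighter probe lies also below let-7e-5p (2.32), let-7a-5p (2.26) and let-7i-5p (2.25). A larger difference than that of miR-21a-5p was found in 41 and than that of miR-31-5p in 46. All 3 members were over 2-fold brighter on array 1, as were 42.3% of the 201. The 4 control features named dmr that were detected on both arrays differed by only 0.06 to 0.27. Scaling to the 75th percentile of the 201 removed 1.71. Scaled signals were 7.30 on array 1 and 7.20 on array 2 for miR-21a-5p, 5.68 and 5.63 for miR-31-5p, and 4.96 and 4.33 for miR-210-3p. After scaling, 0 of the 3 members were over 2-fold apart, against 48.8% of the 201 in either direction. The 1.71 removed was close to the differences of miR-21a-5p and miR-31-5p but above the median of 0.78 over the 201. These shares thus depend on the value subtracted and are not read as a rank of repeatability.

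**Figure D5:**
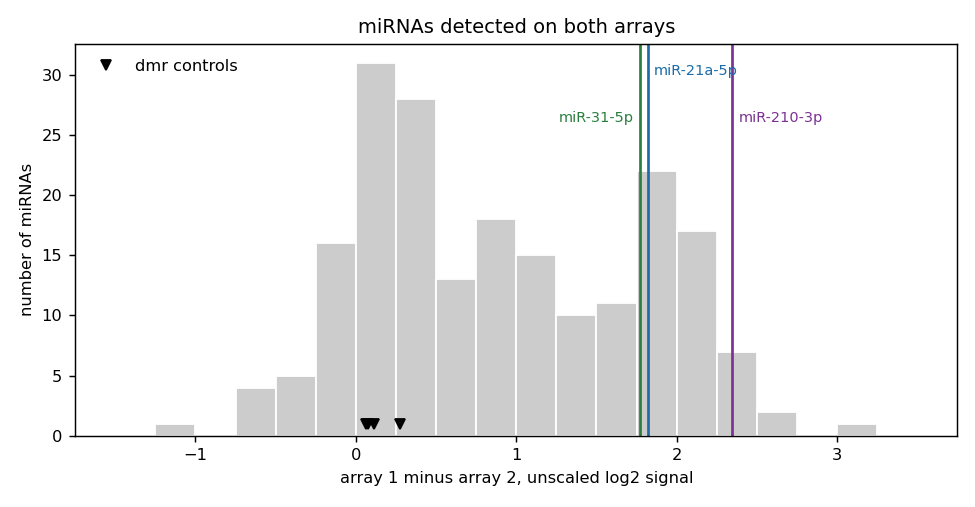
Number of miRNAs, of the 201 detected on both arrays, by unscaled log2 difference of array 1 minus array 2. Coloured lines mark miR-31-5p (1.77), miR-21a-5p (1.82) and miR-210-3p (2.35), and triangles the 4 dmr controls, all between 0.06 and 0.27.

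Likeness between miRNAs can only be judged here by this 1 difference over 2 arrays, and many of the 201 lie close together. Nearest to miR-21a-5p were miR-27a-3p (1.82), miR-34c-5p (1.82) and miR-669l-5p (1.81). Nearest to miR-31-5p were miR-15a-5p (1.77), miR-7005-5p (1.78) and miR-214-3p (1.75). Nearest to miR-210-3p were let-7d-5p (2.36), let-7e-5p (2.32) and miR-6944-5p (2.41).

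Of 14 further miRNAs known to be raised in tumours, chosen with earlier results of these arrays known, 7 were detected on both arrays (50%), against 10.7% of all miRNAs. These were miR-221-3p, a repressor of the cell cycle inhibitor p27, miR-92a-3p, miR-19b-3p and miR-20a-5p of the miR-17 to miR-92 polycistron, and miR-25-3p, miR-93-5p and miR-106b-5p of its paralogous cluster. Another 5 were called on array 1 only, as miR-155-5p was: miR-222-3p, miR-10b-5p, miR-96-5p, miR-183-5p and miR-19a-3p. Over all 1881 miRNAs, 111 were called on array 1 only and 1568 on neither. miR-17-5p and miR-182-5p were called on neither, with miR-182-5p at 2.99 times its error on array 1. The 7 differed by 1.11 (miR-92a-3p) to 2.55 (miR-221-3p) between the arrays, unscaled, with a median of 1.66. Of 6 stromal miRNAs, 4 (66.7%) were detected on both arrays, against 10.7% of all miRNAs. They were miR-199a-3p, miR-199a-5p, miR-199b-5p and miR-214-3p, in the same direction, brighter on array 1 by 1.56 to 2.05. The list is short, the 4 are all miR-199 or miR-214 names, and miR-143-3p and miR-145a-5p were not detected.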

How the data were processed

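The authors deposited 1 scanner file per array with spot intensity on a linear scale, background-subtracted and spatially detrended by Agilent Feature Extraction 10.7.1.1, per the file headers and the submitters' processing notes. It was not normalized between arrays. Both arrays shared 1 slide and 1 scan, per the file headers. Other columns, such as detection and outlier flags, are deposited flags of 0 or 1. The value table that the authors deposited is in log2 units, with the same sorted values in both columns, a lowest value of -3.32 and unstated centring. It was used only as an alternative. Per the labels' protocols, dye was added with a kit for amplified cRNA, whereas the scanner protocol in the headers is one for miRNA.

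Population-outlier spots were omitted (9 of 240 member spots on array 1 and 2 on array 2), and no spot was saturated. Levels are log2 intensity, floored at 1, averaged over spots and then probes. For scaling, the 75th percentile of the miRNAs called on both arrays (6.29 on array 1 and 4.58 on array 2) was subtracted per array and the mean of the pair added back. Signals were compared as ratios of mean intensity per probe, with SE over spots. Only 2 arrays limit all precision. With 1 group there was no test between conditions and no p-value. Members, lists and alternatives were chosen with earlier results of these data known. The text names all members, names sharing a seed or number with one, the listed miRNAs, and the 3 nearest in array difference. Sequences were matched by name, 8 of 8. Tools were Python 3.11.15, numpy 2.4.6, pandas 2.3.3, scipy 1.17.1, matplotlib 3.10.9, R 4.3.3 and limma 3.58.1 (normexp). On simulated arrays of 1881 miRNAs, 4 of 4 checks of the array difference, detection and scaling passed. The simulation set its own noise and probe error, and its scaling check holds by construction. It therefore does not test the calls near the threshold on the real arrays.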

Additional observations from a re-analysis of the deposited data

Results flagged for a closer look

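In the authors' deposited value table, miR-155-5p has a log2 value of -1.14 on array 2, above the table's lowest value of -3.32, although neither of its probes was detected there. It is raised here because the value table entered only as an alternative, and the value is not read as a signal. On array 1, where the miRNA was detected, the table gives -0.95. The table holds 111 such values on array 2 for names not detected on that array, and 0 on array 1. Across these 111 names, which are not independent replicates, the value had a Spearman rho of -0.01 with the summed total signal of the name's own probes. Both columns of the table hold the same sorted values, with 322 above the lowest in each. Array 2 thus has as many values above the lowest as array 1, although fewer names were detected on it. Of the 111 names, 72 were detected on array 1. Why these names hold the values was not tested.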

How the results depend on the processing

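The count of 3 members was 5 when 1 array sufficed, and 3 to 5 with each array left out in turn, the 5 without array 2. Of all 1881 miRNAs, 16.6% were detected on array 1, 10.7% on array 2, and 1568 miRNAs on neither. The member count was 3 with the majority of spots well above background (6.91% of all miRNAs). It was also 3 with the mean intensity above the negative controls (8.35%). It was 2, without miR-210-3p, with a total over 6 times its error (4.52%) or with all probes required (6.17%). Listed tumour miRNAs numbered 4 with 6 times the error, 12 when 1 array sufficed, and 7 to 12 with each array left out. They fell to 5 with the majority of spots well above background and also with the mean intensity above the negative controls. The shares over all miRNAs under these rules are those given for the members. miR-21b and miR-21c stayed at 0 under every alternative run. Mean scaled signals of miR-21a-5p, miR-31-5p and miR-210-3p (7.25, 5.65 and 4.64) became 7.91, 6.86 and 6.51 with normexp, 8.66, 6.29 and 5.28 with the brightest probe, 6.50, 4.39 and 3.11 in the authors' deposited value table and 6.62, 4.56 and 3.32 as the probes' summed totals, a setting added after the data had been seen. With each array left out they ranged from 7.20 to 7.30, 5.63 to 5.68 and 4.33 to 4.96. The median array difference of 1.82 became 0.11 after scaling, 1.48 with the percentile over all miRNAs, 0.41 with quantile normalization, 0.56 in the value table and 0.83 with normexp. Each scaling subtracts part of the difference by construction. No alternative turned its sign. Scaled values of miR-155-5p (2.26 on array 1 and 3.11 on array 2) and miR-31-3p (2.05 and 2.30) were the higher on array 2, where neither was detected, and are not read as levels. The gaps between members over probes detected on both arrays were a setting added after the data had been seen; with all probes they were 0.45 and 0.51 for miR-210-3p against miR-21a-5p and miR-31-5p. No paired analysis was possible because there was 1 group.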

Other observations

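For both members called on array 1 alone, the scanner file's total per miRNA was larger than the summed totals of their detected probes. For miR-155-5p the listed total was 12.89, or 3.60 times its own 3.58, and for miR-31-3p it was 12.45, or 4.97 times its own 2.51. In both cases the excess equalled what the file lists for the preceding detected name in alphabetical order, 9.31 for miR-151-5p and 9.95 for miR-30e-5p. For miR-21a-5p, miR-31-5p and miR-210-3p the listed totals equalled their probes' sums on both arrays. The levels reported above do not use the listed totals.

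Signal over error of these 2 members can be set beside the other miRNAs with the same pattern of calls. Over the 111 miRNAs called on array 1 only, 35.6% of those detected there, the best probe had a median of 4.44 on array 1 and 1.64 on array 2, against 5.12 and 2.19 for miR-155-5p and 3.89 and 1.41 for miR-31-3p.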
